A study of Mus musculus with 9 samples.

Results

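The genes described here are 9 mouse genes of iron storage, uptake and handling, from the 54532 genes of the deposited table: Tfrc, Fth1, Ftl1, Ncoa4, Slc40a1, Hmox1, Aco1, Ireb2 and Acsl4. They were taken by name and function, not by a threshold on a value, but with earlier results of these data known. All 9 were present in the table and 8 of them had enough counts to be tested. Slc40a1 did not, and is given by its counts.

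Most cells take up iron as transferrin bound to the transferrin receptor, which Tfrc encodes, and keep what they do not use inside ferritin, a hollow shell built of the heavy chain Fth1 and the light chain Ftl1. Ncoa4 carries ferritin to the lysosome, where its iron is set free, Hmox1 releases iron from haem, and Slc40a1, ferroportin, exports iron from the cell. A pair of RNA-binding proteins, Irp1 (encoded by Aco1) and Irp2 (encoded by Ireb2), bind hairpins called iron-responsive elements when iron is scarce. Binding in the 3' untranslated region protects the Tfrc mRNA from decay, while binding in the 5' untranslated region blocks translation of the ferritin and ferroportin mRNAs. Much of ferritin control therefore happens at translation, which mRNA counts do not measure. Acsl4 activates polyunsaturated fatty acids for insertion into membrane lipids, the substrate of iron-dependent lipid peroxidation in ferroptosis.

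RNA was sequenced from RENCA, a mouse renal carcinoma cell line, in 3 groups of 3 libraries. Rescue cells, labelled NDUFA4L2 +/+, were the knockout line with Ndufa4l2 put back by a lentivirus under puromycin selection. Which promoter drives that vector was not stated in the labels. Knockout cells, labelled NDUFA4L2 -/-, came from colonies of single cells edited with the CRISPR-Cas9 plasmid PX458. Empty-vector cells were labelled WT. All groups share the RENCA background, and the protocols describe growth in RPMI with fetal bovine serum. The labels do not state whether the knockout libraries come from 1 clone, so loss of the gene and choice of a clone cannot be told apart. The study asked what Ndufa4l2, a mitochondrial protein related to a respiratory-chain subunit, does in these tumour cells.

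Library totals ran from 13106531 to 26643877 counts, and 13326 genes were tested. Ndufa4l2 itself stood at 2.48 ± 0.239 CPM (counts scaled by library size and TMM factor) in rescue, 0.453 ± 0.204 in knockout and 0.520 ± 0.128 in empty vector (SD, n = 3 each). It was highest in rescue, and since knockout and empty vector were alike low, its counts do not check the knockout label. Genes of the mitochondrial genome took 2.47% ± 0.212 of counts in rescue, 7.01% ± 1.10 in knockout and 2.79% ± 0.550 in empty vector. The part of this shift in the results below was not tested beyond a fit without those genes, which kept every call among the 8 genes. The renal markers Pax8, Pax2, Krt8, Krt18 and Cdh16 were present in every library, while Epcam had at most 1 count in any library. Of 12 renal epithelial markers 10 had enough counts, and their sum was 1971 to 2035 CPM in rescue, 2529 to 2720 in knockout and 1467 to 1756 in empty vector. Single markers differed between the groups. Cdh1 averaged 2.46 CPM in rescue, 99.6 in knockout and 11.9 in empty vector, and Pax8 165, 98.6 and 237. In knockout against empty vector 7 of the 10 rose and 3 fell, where 29.5% of all genes were called higher and 31.1% lower. Of 10 macrophage markers 4 had enough counts. The summed level of the 10 was 50.8 to 54.5 CPM in rescue, 274 to 297 in knockout and 88.8 to 92.1 in empty vector. Most of it was Cd68 (means of 35.9, 205 and 76.3 CPM in the same order) and Cd14 (13.8, 70.2 and 11.9). In knockout Lyz2 stood at 7.49 CPM and Csf1r at 3.87. Adgre1, Itgam and Mrc1 had no count in any library, and Ptprc had at most 2. Hepatocyte markers were at most 0.0643 CPM in sum. For erythroid markers, 2 of 8 had enough counts (14.8 to 16.9, 34.3 to 38.5 and 9.77 to 12.8 CPM in sum), and the globins Hbb-bs and Hbb-bt had none. Fibroblast and endothelial markers, also 2 of 8, summed to 24.7 to 25.8, 54.6 to 65.9 and 25.3 to 31.7 CPM, with Lum and Kdr at no count. Separate cultures are not stated for the replicates. The p-values therefore reflect library-to-library spread alone, and that spread may be technical.

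The iron-responsive elements are shown because they are the sequence by which 4 of the 9 mRNAs are tied to cellular iron. The transcripts of the GENCODE M21 annotation (GRCm38) were searched for a C, then 5 bases, then the loop CAGTGN, then 5 bases that pair with the 5 before the loop. Only the sense strand was searched, and G-T pairs were allowed. A match in an untranslated region was found in 160 of 21877 protein-coding genes, or 0.73%. Among the 9 genes it was found in the 5' untranslated region of Fth1, Ftl1 and Slc40a1 and at 4 places in the 3' untranslated region of Tfrc. It was not found in Ncoa4, Hmox1, Aco1, Ireb2 or Acsl4. Each sequence below is 30 bases of mRNA-sense DNA, 5′ to 3′, with the 6 bases of the loop in capitals.
Fth1, chr19:9982732-9982761, plus strand: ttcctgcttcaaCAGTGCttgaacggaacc
Ftl1, chr7:45459778-45459807, minus strand: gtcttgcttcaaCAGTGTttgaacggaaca
Slc40a1, chr1:45925464-45925493, minus strand: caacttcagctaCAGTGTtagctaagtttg
Tfrc site 1, chr16:32631219-32631248, plus strand: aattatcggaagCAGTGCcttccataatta
Tfrc site 2, chr16:32631598-32631627, plus strand: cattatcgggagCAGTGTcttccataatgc
Tfrc site 3, chr16:32631663-32631692, plus strand: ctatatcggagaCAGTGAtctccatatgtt
Tfrc site 4, chr16:32631710-32631739, plus strand: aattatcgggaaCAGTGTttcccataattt

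The Fth1 and Ftl1 sites shared 26 of 30 bases with each other and the Slc40a1 site shared 13 of 30 with each of them. In Tfrc, site 1 shared 25 of 30 bases with site 2, 24 with site 4 and 19 with site 3. The ferritin sites began at base 87 of the Fth1 and base 78 of the Ftl1 transcript, upstream of coding sequences of 546 and 549 bases. The Tfrc sites lay between bases 3315 and 3835 of a transcript of 4890 bases, in a 3' untranslated region of 2461 bases that is longer than its coding sequence of 2289 bases.

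**Figure D1:**
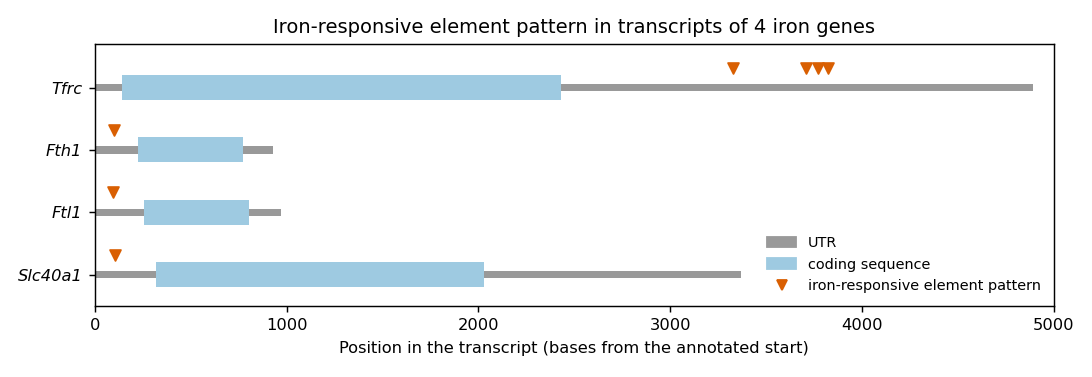
Position of the iron-responsive element pattern (triangles) along the annotated transcripts of Tfrc, Fth1, Ftl1 and Slc40a1, in bases from the transcript start; thick blue bars are coding sequence and thin grey bars untranslated regions. The single sites of Fth1, Ftl1 and Slc40a1 lie before the coding sequence and the 4 sites of Tfrc lie after it.

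A gene was called where its adjusted p in edgeR's quasi-likelihood test was under 0.05 over all genes tested. In knockout against empty vector, 4 of the 8 tested genes rose (Tfrc, Fth1, Ftl1 and Aco1) and 2 fell (Ncoa4 and Ireb2). Among all 13326 genes tested in that comparison, 60.6% were called, 29.5% higher and 31.1% lower. In rescue against knockout, 3 rose (Ftl1, Hmox1 and Ireb2) and 2 fell (Tfrc and Aco1), where 56.8% of all genes were called, 29.5% higher and 27.3% lower. In rescue against empty vector, 4 rose (Tfrc, Ftl1, Hmox1 and Aco1) and 1 fell (Ncoa4), where 47.5% of all genes were called, 22.4% higher and 25.1% lower. The ranges of both groups were apart for 6 of the 8 genes in rescue against knockout, 5 in rescue against empty vector and 6 in knockout against empty vector, against 65.3%, 55.1% and 63.7% of all genes. The number of genes called among the 8 was thus close to the share of all genes called. Tfrc had the largest changes of the 8. Its change of at least 1 log2 unit up in knockout against empty vector was shared by 8.13% of all genes, its change of at least 1 in rescue against empty vector by 2.12%, and its change of -1 or less in rescue against knockout by 8.4%. The 3 comparisons share libraries and are not independent of each other.

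**Figure D2:**
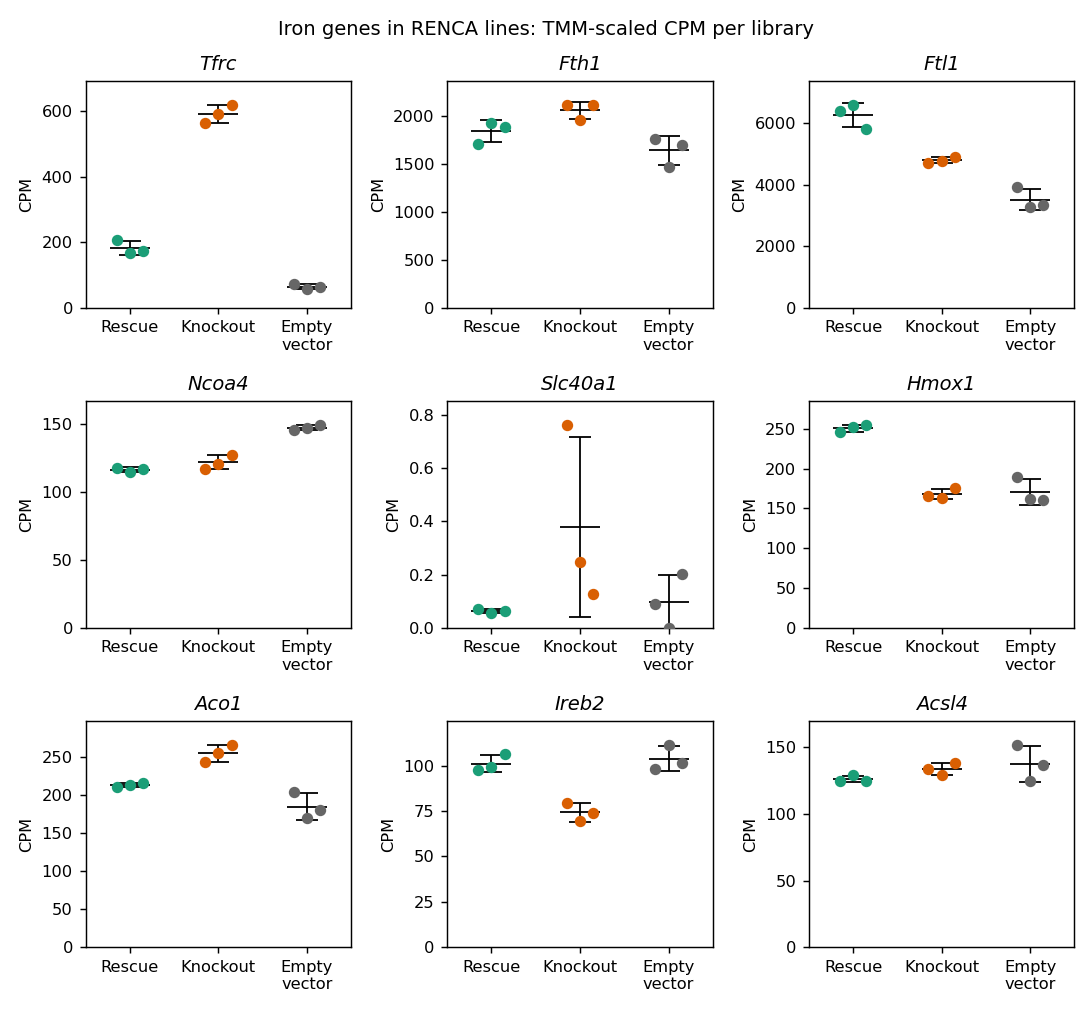
Level of each of the 9 genes in CPM (scaled by TMM factors) in each library of rescue, knockout and empty-vector cells; points are libraries, and the black bar and whiskers are the mean and SD of 3. Tfrc averages 182 CPM in rescue, 591 in knockout and 64.5 in empty vector, and Slc40a1 is below 1 CPM in every library.

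Tfrc (ENSMUSG00000022797; chromosome 16, 32608920 to 32632794, plus strand, mm10) showed the largest differences of the 9 genes. It stood at 208, 166 and 173 CPM in the rescue libraries, 565, 590.4 and 618 in knockout and 73.1, 58.5 and 62.0 in empty vector. The 3 groups did not overlap, with knockout highest, rescue between and empty vector lowest. The means were 182 ± 22.1 CPM in rescue, 591 ± 26.2 in knockout and 64.5 ± 7.62 in empty vector (SD, n = 3). Tfrc rose 9.14-fold in knockout against empty vector, a log2 change of 3.19 ± 0.09 (SE; edgeR adjusted p = 3.1e-14). In rescue against knockout it fell, with a log2 change of -1.70 ± 0.09 (edgeR adjusted p = 3.5e-11). The rescue level was 3.24-fold lower than that of knockout and 2.82-fold higher than that of empty vector (log2 change 1.50 ± 0.09; edgeR adjusted p = 9.8e-10). No 50-base word of the Tfrc transcript occurs in the annotated transcripts of another gene. Copies outside the annotation and copies with mismatches were not searched. The summed macrophage, erythroid, fibroblast and endothelial, and renal epithelial markers given above were also highest in knockout, the renal and erythroid sums in the same order of groups as Tfrc. Their part in the change of Tfrc was not tested. In bulk RNA, fewer cells of a type and less RNA per cell cannot be told apart.

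The promoter of Tfrc is shown because this gene moved most. RefSeq (GRCm38.p6) gives windows of 250 bases before to 50 after a start site for 7 of the 9 genes, and where a gene has several, the window nearest to the gene's start in the table was taken. Hmox1 and Slc40a1 were not matched. Windows were searched on both strands for CCAAT (bound by NF-Y), ACGTG (the core of hypoxia response elements), TGACGT (the cyclic AMP response element core) and TGACNNNGC (the core of antioxidant response elements). Of 32851 windows in the RefSeq table, 37.4% held the NF-Y motif, 19.6% the hypoxia core, 7.51% the cyclic AMP core and 12.4% the antioxidant core. The Tfrc window held the NF-Y motif 1 time, the hypoxia core 1 time at -2 and the cyclic AMP core 1 time at 13 bases from the start site, without overlap. The Ftl1 window held the NF-Y motif 2 times and the Fth1 window 1 time, each on the reverse strand, where it reads ATTGG. The Ncoa4 window held the hypoxia core and the Acsl4 window the cyclic AMP core, 1 time each. The antioxidant core was in none of the 7 windows. Sites outside these windows, and any of Hmox1 and Slc40a1, were not searched. Capitals mark the NF-Y motif and the hypoxia core on either strand.
Tfrc promoter, chr16:32608646-32608945, plus strand: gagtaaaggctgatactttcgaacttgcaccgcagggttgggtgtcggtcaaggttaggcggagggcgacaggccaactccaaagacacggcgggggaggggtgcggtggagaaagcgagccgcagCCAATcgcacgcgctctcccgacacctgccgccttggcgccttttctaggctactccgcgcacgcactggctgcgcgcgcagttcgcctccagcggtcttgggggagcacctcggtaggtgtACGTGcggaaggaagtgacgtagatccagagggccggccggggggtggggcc
Ftl1 promoter, chr7:45459837-45460136, minus strand: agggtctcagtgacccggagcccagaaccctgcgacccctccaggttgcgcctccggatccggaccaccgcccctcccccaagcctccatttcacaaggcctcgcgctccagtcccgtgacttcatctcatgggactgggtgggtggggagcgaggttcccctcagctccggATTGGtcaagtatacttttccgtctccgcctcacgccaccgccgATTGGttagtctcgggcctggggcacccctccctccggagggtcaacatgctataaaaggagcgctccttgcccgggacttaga

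The ferritin light chain Ftl1 (ENSMUSG00000050708; chromosome 7, 45457944 to 45459884, minus strand) was the most abundant of the 9 genes in every library. Its libraries stood at 6387, 6583 and 5824 CPM in rescue, 4708, 4777 and 4897 in knockout and 3918, 3275 and 3353 in empty vector. The groups formed 3 separate steps, highest in rescue, then knockout, then empty vector. Means were 6264 ± 394 CPM in rescue, 4794 ± 95.3 in knockout and 3515 ± 351 in empty vector (SD, n = 3). The rise of Ftl1 was 0.39 ± 0.09 log2 units (SE) in rescue against knockout (edgeR adjusted p = 0.0011). In rescue against empty vector it rose 1.78-fold, or 0.83 ± 0.09 log2 units (edgeR adjusted p = 4.9e-07). It also rose in knockout against empty vector, by 0.45 ± 0.09 log2 units (edgeR adjusted p = 0.00025).

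Ftl1 has processed copies across the genome, and 90.6% of the 50-base words of its transcript occur in transcripts of 17 other annotated genes, so its own count is uncertain. The copy with most counts was Ftl1-ps1 on chromosome 13, at 135 ± 14.1 CPM in rescue, 117 ± 6.64 in knockout and 74.2 ± 12.3 in empty vector. Its count was 0.0216 ± 0.00206 of that of Ftl1 in rescue, 0.0244 ± 0.00170 in knockout and 0.0210 ± 0.00142 in empty vector. The other copies with a ferritin name and any counts were Ftl2-ps, Ftl1-ps2, Fth-ps2 and Fth-ps3, of which Ftl2-ps held the most, at most 85 counts in a library. With the reads of the 3 light-chain copies added to Ftl1, its log2 changes were 0.38, 0.83 and 0.45 in the same order. The other genes among the 17 were not added, so this fit covers only a part of the sharing. The table also has a small RNA gene on the same strand and Gm10252 on the other strand within Ftl1, and the labels do not state whether counting used strand.

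The heavy chain Fth1 (ENSMUSG00000024661; chromosome 19, 9982703 to 9985092, plus strand), which oxidises iron for storage, moved less. It stood at 1708, 1928 and 1887 CPM in rescue, 2110.1, 1957 and 2109 in knockout and 1758, 1467.5 and 1697 in empty vector. Knockout libraries were all above those of the other groups, while rescue and empty vector overlapped. Means were 1841 ± 117 CPM in rescue, 2059 ± 88.0 in knockout and 1641 ± 153 in empty vector (SD, n = 3). Fth1 rose in knockout against empty vector by 0.33 ± 0.08 log2 units (SE; edgeR adjusted p = 0.0021), that is 1.25-fold. The log2 change was -0.16 ± 0.08 in rescue against knockout (edgeR adjusted p = 0.10) and 0.17 ± 0.08 in rescue against empty vector (edgeR adjusted p = 0.11), so neither passed. In the authors' deposited table, made with a test that the labels do not name, the knockout over rescue change of Fth1 was 0.174 on the log2 scale with an adjusted p of 0.00424.

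Within a library the chains of ferritin can be set against each other with no scaling between libraries. The ratio of Ftl1 to Fth1 in the authors' FPKM values was 2.42, 2.21 and 1.99 in rescue, 1.44, 1.58 and 1.50 in knockout and 1.44, 1.44 and 1.28 in empty vector. All rescue libraries lay above all others. The mean log2 difference was 0.55 in rescue against knockout and 0.67 in rescue against empty vector, each with an exact two-sided permutation p of 0.1 (adjusted p = 0.14 over 15 such tests), the smallest that 3 against 3 libraries allow. Between knockout and empty vector the difference was 0.12 (exact permutation p = 0.2; adjusted p = 0.23).

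The ratio of Tfrc to Fth1, uptake against storage, was 0.0170, 0.0121 and 0.0128 in rescue, 0.0375, 0.0422 and 0.0410 in knockout and 0.00582, 0.00558 and 0.00512 in empty vector. The groups did not overlap and kept the order of Tfrc itself. The log2 difference was -1.54 in rescue against knockout, 1.33 in rescue against empty vector and 2.87 in knockout against empty vector, each at the smallest exact permutation p of 0.1 (adjusted p = 0.14).

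**Figure D3:**
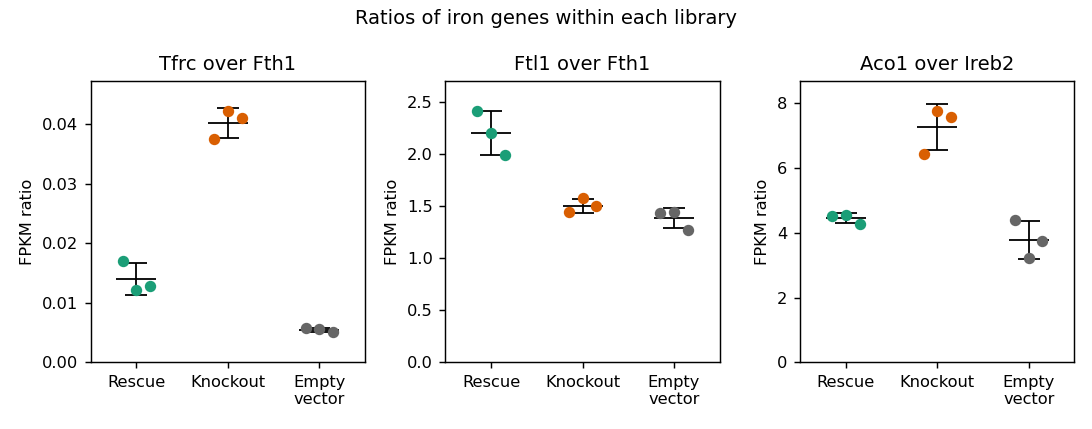
FPKM ratios within each library for Tfrc over Fth1, Ftl1 over Fth1 and Aco1 over Ireb2, in rescue, knockout and empty-vector cells; points are libraries, and bars and whiskers are the mean and SD of 3. Tfrc over Fth1 and Aco1 over Ireb2 are highest in the 3 knockout libraries, and Ftl1 over Fth1 is highest in the 3 rescue libraries.

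Ncoa4 (ENSMUSG00000056234; chromosome 14, 32159865 to 32179855, plus strand), the receptor that delivers ferritin to autophagosomes, was lower in rescue and knockout than in empty vector. Its libraries stood at 118, 115 and 117 CPM in rescue, 117, 121 and 127 in knockout and 146, 147 and 149 in empty vector. Every rescue and knockout library lay below every empty-vector library. The means were 117 ± 1.66 CPM in rescue, 122 ± 5.17 in knockout and 148 ± 1.85 in empty vector (SD, n = 3). Ncoa4 fell by 0.34 log2 units in rescue against empty vector (SE 0.06; edgeR adjusted p = 6.2e-05). It fell by 0.28 log2 units in knockout against empty vector (SE 0.06; edgeR adjusted p = 0.00032). Rescue and knockout differed by -0.07 ± 0.06, which did not pass (edgeR adjusted p = 0.34). The processed pseudogene Gm6768 on chromosome 12 shares 43.1% of the 50-base words of the Ncoa4 transcript, and with its reads added the calls of Ncoa4 were the same. The ratio of Ncoa4 to Fth1 in FPKM was 0.00587 ± 0.000451 in rescue, 0.00548 ± 0.000299 in knockout and 0.00837 ± 0.000838 in empty vector.

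Slc40a1 (ENSMUSG00000025993; chromosome 1, 45908068 to 45926523, minus strand), the only known iron exporter of mammalian cells, was barely detected. It had 2, 1 and 1 counts in the rescue libraries, 12, 3 and 3 in knockout and 2, 0 and 5 in empty vector. The highest library, knockout replicate 1, reached 0.763 CPM, and the groups of knockout and empty vector overlapped. A floor of 3 counts over a group corresponds to 0.0482 CPM in rescue, 0.0582 in knockout and 0.0476 in empty vector, counting error only. Slc40a1 did not pass the filter on low counts. Fitted without that filter, its log2 change was -2.35 in rescue against knockout (edgeR adjusted p = 0.028), and without knockout replicate 1 it was -1.32 (edgeR adjusted p = 0.50). A difference in ferroportin mRNA was therefore not detectable at this depth without that library.

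Hmox1 (ENSMUSG00000005413; chromosome 8, 75093621 to 75100589, plus strand), which degrades haem to biliverdin, carbon monoxide and iron, was raised in rescue. It stood at 246, 252 and 255 CPM in rescue, 165, 163 and 176 in knockout and 189, 162 and 161 in empty vector. All rescue libraries lay above all others, and knockout and empty vector overlapped. The means were 251 ± 4.38 CPM in rescue, 168 ± 6.59 in knockout and 171 ± 16.0 in empty vector (SD, n = 3). Hmox1 rose 1.49-fold in rescue against knockout, a log2 change of 0.58 ± 0.07 (SE; edgeR adjusted p = 5e-07), and 1.47-fold in rescue against empty vector (0.56 ± 0.07; edgeR adjusted p = 1.7e-06). Knockout and empty vector differed by -0.02 ± 0.07 log2 units (edgeR adjusted p = 0.80), whose sign turned under other scalings, and with library totals alone as the scale it was -0.17 (edgeR adjusted p = 0.02).

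The mRNAs of the iron regulatory proteins moved in opposite directions in knockout against empty vector. Aco1 (ENSMUSG00000028405; chromosome 4, 40143081 to 40198338, plus strand) encodes a protein that is the cytosolic aconitase when it holds an iron-sulphur cluster and the RNA-binding Irp1 when it does not. It stood at 209.8, 213 and 215 CPM in rescue, 243, 255 and 266 in knockout and 204, 169.9 and 179.95 in empty vector. The groups did not overlap, with knockout highest and empty vector lowest. The means were 213 ± 2.79 CPM in rescue, 254 ± 11.4 in knockout and 185 ± 17.6 in empty vector (SD, n = 3). Aco1 rose in knockout against empty vector by 0.46 ± 0.07 log2 units (SE; edgeR adjusted p = 8.6e-06). In rescue against knockout it fell by 0.26 log2 units (SE 0.07; edgeR adjusted p = 0.0031), a call that was lost with library totals alone as the scale (-0.07; edgeR adjusted p = 0.32). Its rise in rescue against empty vector was 0.20 ± 0.07 (edgeR adjusted p = 0.019), and the adjusted p was 0.057 without rescue replicate 2, 0.06 without rescue replicate 3, 0.10 without empty-vector replicate 2 and 0.08 without empty-vector replicate 3.

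Ireb2 (ENSMUSG00000032293; chromosome 9, 54863789 to 54912530, plus strand) encodes Irp2, which is controlled by degradation in iron-rich cells. Its libraries stood at 97.8, 99.0 and 106 CPM in rescue, 79.5, 69.3 and 74.0 in knockout and 98.4, 111 and 101 in empty vector. Every knockout library lay below every other library, and rescue and empty vector overlapped. The means were 101 ± 4.57 CPM in rescue, 74.3 ± 5.11 in knockout and 104 ± 6.80 in empty vector (SD, n = 3). Ireb2 fell by 0.48 log2 units in knockout against empty vector (SE 0.07; edgeR adjusted p = 4.8e-06) and rose by 0.44 ± 0.07 in rescue against knockout (edgeR adjusted p = 1.5e-05). Rescue and empty vector differed by -0.04 ± 0.07, which did not pass (edgeR adjusted p = 0.67).

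The ratio of Aco1 to Ireb2 in FPKM was 4.52, 4.55 and 4.27 in rescue, 6.44, 7.74 and 7.56 in knockout and 4.38, 3.22 and 3.74 in empty vector. Knockout libraries were above all others. The log2 difference was -0.70 in rescue against knockout and 0.95 in knockout against empty vector, each at the smallest exact permutation p of 0.1 (adjusted p = 0.14), and 0.25 in rescue against empty vector (exact permutation p = 0.2; adjusted p = 0.23). Both mRNAs held no 50-base word of another gene's transcripts.

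Acsl4 (ENSMUSG00000031278; chromosome X, 142317993 to 142390535, minus strand) did not pass in any of the 3 comparisons. It stood at 125, 129 and 125 CPM in rescue, 133, 129 and 138 in knockout and 151.5, 125 and 136 in empty vector. The 3 groups overlapped. The log2 change was -0.08 ± 0.07 in rescue against knockout (SE; edgeR adjusted p = 0.31), -0.13 ± 0.07 in rescue against empty vector (edgeR adjusted p = 0.13) and -0.05 ± 0.07 in knockout against empty vector (edgeR adjusted p = 0.58). With library totals as the scale the last of these was -0.20 (edgeR adjusted p = 0.0089).

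**Figure D4:**
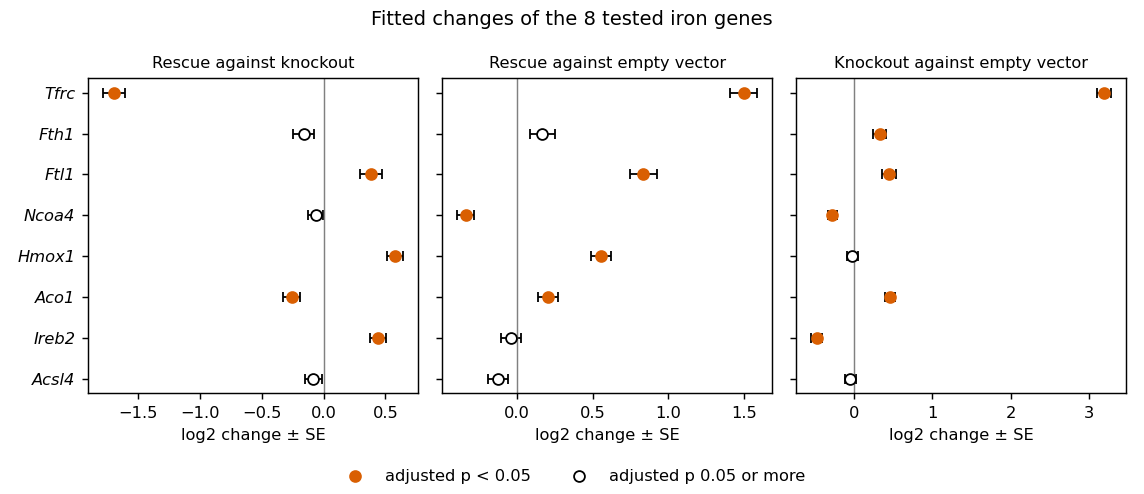
Fitted log2 change with its SE for the 8 tested genes in each comparison of rescue, knockout and empty-vector cells; filled points had an edgeR adjusted p under 0.05 over all genes. The x axes differ between panels; Tfrc has the largest change in each, at -1.70, 1.50 and 3.19.

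Levels of different genes were compared per length, in the authors' FPKM. Ftl1 averaged 4643 FPKM in rescue, 3578 in knockout and 2595 in empty vector, and Fth1 2112, 2377.5 and 1874. These ranked 1 and 2 of the 9 genes in all libraries. Hmox1 followed at 142, 96.0 and 96.4 FPKM in the same order of groups, and Aco1 at 47.0, 56.6 and 40.6. Tfrc changed rank most: at 29.3, 95.6 and 10.3 FPKM it was 5 of 9 in each rescue library, 3 or 4 in knockout and 7 or 8 in empty vector. Acsl4 stood at 23.2, 24.7 and 25.2 FPKM, Ncoa4 at 12.4, 13.0 and 15.6 and Ireb2 at 10.6, 7.84 and 10.8. Slc40a1 was last in every library, at no more than 0.0850 FPKM.

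The genes most like the 3 members with the widest range between groups were sought among all tested protein-coding genes, by the root mean square difference of centred log2 CPM over 9 libraries. For Tfrc, which spanned 3.20 log2 units, they were C1qtnf1 (0.10 log2 units), Paqr7 (0.19) and Gsta3 (0.24). For Ftl1, which spanned 0.84, they were Tubb4b, Rpa1 and Mcm5, at 0.05 to 0.06. For Hmox1, which spanned 0.58, they were Cdc37 (0.04), Ltv1 and Bag2 (both 0.05). The libraries come from 3 groups, so this likeness rests mostly on 3 levels.

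The wider pathway was read from 8 lists holding 131 further genes, of which 113 were tested. In knockout against empty vector 55 rose and 32 fell, where 29.5% of all genes were called higher and 31.1% lower, and the median log2 change was 0.15, against -0.02 over all genes. In rescue against knockout 30 rose and 54 fell, where 29.5% of all genes were higher and 27.3% lower, and the median was -0.10, against 0.03 over all genes. In rescue against empty vector 34 rose and 34 fell, where 22.4% of all genes were higher and 25.1% lower, and the median was 0.02, against -0.02 over all genes. The 32 that fell in knockout against empty vector were a share near that of all genes.

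Iron uptake genes other than Tfrc rose in 9 and fell in 4 of 14 cases in knockout against empty vector, where 29.5% of all genes were higher and 31.1% lower. In rescue against knockout none rose and 11 of 14 fell, where 29.5% of all genes were higher and 27.3% lower. The same shares stand behind the counts of the other lists. Steap3, the ferrireductase that reduces iron released from transferrin in endosomes, stood at 75.4 ± 3.37 CPM in rescue, 247 ± 9.75 in knockout and 101 ± 14.8 in empty vector (SD, n = 3). Slc11a2, the transporter Dmt1 that moves this iron into the cytosol, stood at 72.8 ± 4.41, 120.0 ± 7.72 and 87.7 ± 5.04 CPM. For Tfr2, a second transferrin receptor, the levels were 24.5 ± 1.54, 73.5 ± 6.43 and 45.8 ± 3.20 CPM, and for the ferritin receptor Scara5 41.5 ± 4.54, 145 ± 8.95 and 62.7 ± 1.58 CPM. All 4 rose in knockout against empty vector and fell in rescue against knockout (edgeR adjusted p from 2.1e-13 to 9.4e-06). Unlike Tfrc, they also fell in rescue against empty vector (edgeR adjusted p from 3.9e-08 to 0.0029). Steap4, another ferrireductase, was at 0.109 CPM in rescue, 4.63 in knockout and 0.0148 in empty vector. The last lies below the floor of 3 counts over that group (0.0476 CPM), so the size of the rise in knockout is uncertain.

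Among storage and ferritin turnover genes outside the 9, 2 of 5 rose and 2 fell in knockout against empty vector. Atg9a, an autophagy membrane protein, rose by 1.01 ± 0.09 log2 units and Tax1bp1, an autophagy receptor, by 0.30 ± 0.06, while the iron chaperone Pcbp2 fell by 0.20. Herc2, a ubiquitin ligase for Ncoa4, fell by 0.47 in rescue against knockout and did not pass in knockout against empty vector (0.21 ± 0.11; edgeR adjusted p = 0.13). Mitochondrial ferritin, Ftmt, had no count in any library. Export and haem transport genes other than Slc40a1 rose in 4 and fell in 2 of 6 cases in knockout against empty vector, and none rose and 5 fell in rescue against knockout. Heph, the ferroxidase hephaestin that works with ferroportin, stood at 22.8 ± 0.919 CPM in rescue, 85.3 ± 6.63 in knockout and 34.1 ± 2.32 in empty vector. The haem transporter Slc48a1 had the same order of knockout over rescue, at 793 ± 23.6, 1380.5 ± 49.0 and 565 ± 71.6 CPM. Ceruloplasmin, Cp, another ferroxidase, stood at 769 ± 32.3, 744 ± 13.4 and 1268 ± 61.0 CPM and fell in knockout against empty vector by 0.77 log2 units (edgeR adjusted p = 1.1e-08). Abcg2, a porphyrin and drug exporter, rose by 0.29 ± 0.06 log2 units in knockout against empty vector and fell by 0.78 in rescue against knockout. Hamp, which encodes the ferroportin ligand hepcidin, had no count in any library.

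In the list of the iron regulatory protein system, 1 of 8 further genes rose and 3 fell in knockout against empty vector, and 6 rose and 1 fell in rescue against knockout. Fbxl5, the iron-sensing subunit of the ubiquitin ligase that degrades Irp2, stood at 161 ± 2.51 CPM in rescue, 106 ± 6.91 in knockout and 191 ± 3.52 in empty vector (SD, n = 3). It fell by 0.85 log2 units in knockout against empty vector (edgeR adjusted p = 6e-10) and rose by 0.60 ± 0.06 in rescue against knockout (edgeR adjusted p = 8.6e-08). Its ligase partner Cul1 fell by 0.16 log2 units in knockout against empty vector (edgeR adjusted p = 0.041) and rose by 0.43 ± 0.07 in rescue against knockout. The other ligase partners did not fall in knockout against empty vector. There Rbx1 rose by 0.21 ± 0.06 (edgeR adjusted p = 0.0044) and Skp1a did not pass (0.08 ± 0.09; edgeR adjusted p = 0.45). In rescue against knockout Rbx1 rose by 0.25 ± 0.06 and Skp1a by 0.52 ± 0.09. Cdc14a, a phosphatase, fell by 1.02 log2 units in knockout against empty vector and rose by 0.95 ± 0.15 in rescue against knockout.

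Of 27 genes of mitochondrial iron and iron-sulphur cluster assembly, 7 rose and 10 fell in knockout against empty vector, and 9 rose and 8 fell in rescue against knockout. These counts are near the shares of all genes called, so they are no result about this list. Hspa9, the chaperone that hands on new clusters, fell by 1.14 log2 units in knockout against empty vector, and Abcb8, Cisd2 and Fdxr rose by 0.76 ± 0.07, 0.82 ± 0.09 and 0.48 ± 0.08. Haem genes other than Hmox1 rose in 10 and fell in 4 of 17 cases in knockout against empty vector. Por, the reductase that supplies electrons to haem oxygenase, rose by 1.50 ± 0.07 log2 units and Cpox, an enzyme of haem synthesis, fell by 0.93. Hmox2, the constitutive haem oxygenase, stood at 44.2 ± 1.34 CPM in rescue, 51.9 ± 1.67 in knockout and 28.8 ± 2.35 in empty vector, so that knockout was highest where Hmox1 was highest in rescue. Bach1, the haem-binding repressor of Hmox1 and of ferritin genes, stood at 28.5 ± 1.45, 50.1 ± 1.96 and 27.2 ± 2.60 CPM and rose in knockout against empty vector by 0.89 ± 0.08 log2 units (edgeR adjusted p = 8.2e-09).

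Among 16 NRF2 regulators and core targets, a group that is known to include ferritin and Hmox1 among its wider targets, 12 rose and 3 fell in knockout against empty vector, and 4 rose and 9 fell in rescue against knockout. Gclm stood at 155 ± 4.44 CPM in rescue, 255 ± 17.9 in knockout and 81.9 ± 7.82 in empty vector, and Srxn1 at 368 ± 11.6, 461 ± 24.9 and 168 ± 15.1. Nqo1 rose by 1.39 ± 0.09 log2 units in knockout against empty vector and fell by 0.27 in rescue against knockout. The mRNA of the factor itself, Nfe2l2, fell in knockout against empty vector by 0.29 log2 units (edgeR adjusted p = 0.00045), and that of its inhibitor Keap1 rose by 0.75 ± 0.08 (edgeR adjusted p = 6.1e-08). Of 22 ferroptosis and lipid peroxidation genes beside Acsl4, 12 rose and 4 fell in knockout against empty vector, and 7 rose and 14 fell in rescue against knockout. Slc7a11, which imports cystine for glutathione, stood at 47.6 ± 3.05 CPM in rescue, 109 ± 7.90 in knockout and 38.5 ± 11.1 in empty vector. Gpx4, the peroxidase that guards against ferroptosis, did not pass in any comparison (log2 changes 0.12, 0.01 and -0.11 in rescue against knockout, rescue against empty vector and knockout against empty vector). Dhodh and Gch1, enzymes of radical-trapping pathways, fell by 1.10 and 0.80 log2 units in knockout against empty vector. Mboat1 fell by 1.69 log2 units in knockout against empty vector and Scd1, which makes monounsaturated fatty acids, rose by 1.37 ± 0.10.

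**Figure D5:**
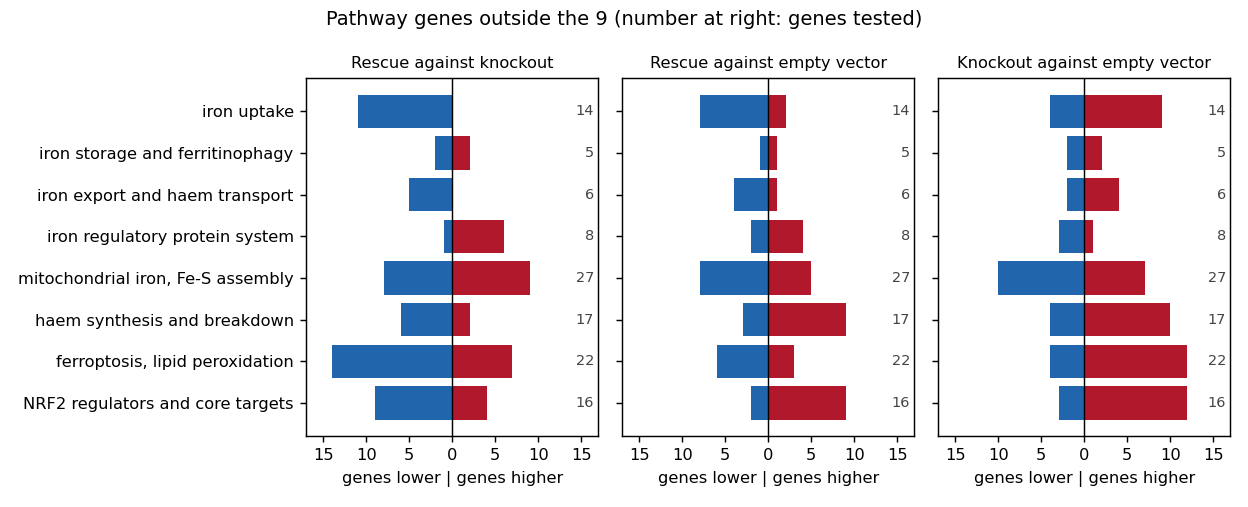
Number of genes called lower (blue, left) and higher (red, right) at an edgeR adjusted p under 0.05 in each of 8 pathway lists without the 9 genes, for 3 comparisons; the number at the right of each row is the genes tested. Uptake genes were lower in 11 of 14 cases in rescue against knockout and higher in 9 of 14 in knockout against empty vector.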

How the data were processed

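Poly(A)-selected RNA of 9 libraries was sequenced, per the labels' protocols, and directional and non-directional preparation are both described. The labels give the molecule as genomic DNA, and the libraries were treated as RNA, following the protocols. Per the submitters' processing notes, the build was mm10 and the tools included HISAT2, HISAT, TopHat2 and CASAVA, with no roles or versions. The authors deposited raw counts per gene, FPKM values, group means of a normalized signal (not used here), and their own log2 fold changes and p-values, per the file headers. The read counter and the authors' test are not given in the sources used here. All 3 labelled knockout libraries were used, although the series' design text counts fewer.

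Counts were tested in edgeR 4.0.16 (R 4.3.3) with filterByExpr, TMM factors and a robust quasi-likelihood fit of 1 mean per group over all 9 libraries, with Benjamini-Hochberg adjustment over 13326 genes. CPM values use TMM-scaled library sizes, and each SE is the size of the log2 change over the root of its F statistic. No replicates were merged, since the chi-square between pairs was 3.56 to 19.7 times its degrees of freedom. The method was tested on simulated data. The 9 genes, the 8 pathway lists and the marker lists were chosen with earlier results of these data known, and the ratios after the values were seen. Other genes were named by a rule: up to 4 per list with the smallest adjusted p, the genes Ndufa4l2, Fbxl5, Gpx4, Slc7a11, Slc11a2, Nfe2l2, Keap1 and Bach1 whether or not they moved, and the nearest genes. A gene that the rule chose is not reported here. Alternatives were DESeq2 1.42.0, other scalings and filters, pairs of groups, a replicate block and leaving out each library. Table coordinates matched GENCODE M21 for 98.3% of shared genes. Among the 9 genes 8 matched, and Fth1 did not, as it runs from 9980598 to 9985098 in GENCODE M21.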

Additional observations from a re-analysis of the deposited data

How the results depend on the processing

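Of 432 recomputed log2 changes (8 genes, 3 comparisons, 18 alternatives each), 410 kept their direction and their side of the threshold. The changes of Tfrc and Ftl1 in all 3 comparisons did so under all 18, as did those of Ireb2 and Fth1 in knockout against empty vector, and the counts of genes called stayed within 1.5 times. With library totals as the scale, the median log2 change of all genes was 0.22 in rescue against knockout, against 0.03, and -0.17 in knockout against empty vector, against -0.02; the share of calls that were higher was 69.6% and 34.4%, against 51.9% and 48.7%. Under that scale, rescue against knockout gave 0.023 for Fth1, 0.12 for Ncoa4, 0.10 for Acsl4 and -0.074 for Aco1 (adjusted p = 0.32), rescue against empty vector 0.20 for Fth1 (0.024), and knockout against empty vector -0.17 for Hmox1 (0.02) and -0.20 for Acsl4 (0.0089). The uncalled change of Hmox1 in knockout against empty vector was 0.0063 with DESeq2 size factors, 0.0064 in the DESeq2 Wald test and 0.0024 with a minimum of 5 CPM. Fth1 was called in rescue against knockout when only those groups were fitted (-0.19; adjusted p = 0.0063) and by DESeq2 (-0.19; 0.031). The cause was not tested.

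Leaving out each library gave ranges in rescue against empty vector of 0.15 to 0.31 for Aco1, 0.090 to 0.24 for Fth1, -0.19 to -0.028 for Acsl4 and -0.074 to 0.013 for Ireb2, in rescue against knockout of -0.19 to -0.10 for Fth1, -0.089 to -0.028 for Ncoa4 and -0.10 to -0.054 for Acsl4, and in knockout against empty vector of -0.069 to 0.072 for Hmox1 and -0.12 to 0.042 for Acsl4. Without empty-vector replicate 1, Fth1 was called in rescue against knockout (-0.15; adjusted p = 0.035) and in rescue against empty vector (0.24; 0.0035), and without empty-vector replicate 2 Acsl4 was called in rescue against empty vector (-0.19; 0.024).

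With the replicate number as a block, 7367, 6091 and 7890 genes were called in rescue against knockout, rescue against empty vector and knockout against empty vector, and no call among the 8 genes changed. Deviations of same-numbered libraries correlated at -0.15 to 0.05, and those of differently numbered libraries at -0.088 to 0.10. These values show no sign of pairing by number but cannot exclude it. Depth limits Slc40a1 to counts, and reads shared with copies leave the levels of Ftl1 and Ncoa4 uncertain.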
